A study of Mus musculus with 6 samples.

Results

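The 8 genes described here are the period repressors Per1, Per2 and Per3, the cryptochromes Cry1 and Cry2, the casein kinases Csnk1d and Csnk1e, and the F-box protein gene Btrc. Their members on the array were all 13 probes, other than controls, whose gene name in the scanner files equals one of these symbols, out of 55681 probes with 34821 gene names. Of the 13 probes, 12 were tested, since in 1 group or both all 3 arrays flagged them well above background, and the single Cry1 probe was not. By limma, 0 of the 12 passed the test adjusted over all 38341 tested probes, where 0.00261% of those did. At an unadjusted p under 0.05, 4 were lower and 1 was higher, against 4.27% and 4.44% of all tested probes. The main values were lower signals of 1 Per1 probe, Per2, Per3 and 1 Cry2 probe in mice with knockout marrow. Their differences were -1.07, -1.27, -1.63 and -0.63 on the log2 scale. Of the 8 other tested probes, 7 overlapped between the groups and 1 Csnk1d probe was higher by 0.42.

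The samples were aortic arches of 6 mice labelled as female C57BL/6, with 1 arch per one-colour array. All recipients were Mir21+/+ and all had been exposed to X-rays in 2 doses of 5 Gy no more than 4 h apart, then given bone marrow on the following day. In the wild-type marrow group the donors were Mir21+/+ and in the knockout marrow group they were Mir21–/–, with 3 mice in each. Both groups ate a high-fat diet for 12 weeks, starting 3 weeks after the irradiation, so every control shares the irradiation, the transplant and the diet. The deletion is restricted to cells that descend from the graft, and the vessel wall itself and any host blood cells that outlived the irradiation keep the gene. No clock time of tissue collection is stated in the sources used here. The comparison asks which arch transcripts differ when marrow-derived cells lack miR-21, and the series title names the daily clock.

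PER and CRY proteins form the repressing arm of the daily clock. CLOCK and BMAL1 (gene Arntl) drive Per and Cry transcription through E-box sequences, and PER and CRY proteins then enter the nucleus together and block that drive. Casein kinases 1 delta and 1 epsilon phosphorylate PER proteins, and the F-box protein beta-TrCP, encoded by Btrc, recognises phosphorylated PER and directs it to the proteasome. Because the kinases and beta-TrCP act on protein, an array of transcripts shows only their mRNA, and cycling of the Per mRNAs by the hour is large in many tissues, the vessel wall among them.

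The miRNA that the donors lacked is shown first, because it defines the groups. Its mature sequence is from RefSeq and lies on the minus strand at chr11:86584120-86584141 of GRCm38.p6, with the seed, bases 2 to 8, in capitals.
miR-21a-5p: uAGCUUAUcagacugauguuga
The array held 0 probes named Mir21 or Mir21a, so the deletion was not checked on these arrays.

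Promoters are shown for the members with lower signal whose windows held a clock element. RefSeq's table for GRCm38.p6 matched 5 of the 8 genes, Per1, Per3, Cry1, Cry2 and Csnk1e, in 9 windows, and did not match Per2, Csnk1d and Btrc. The 250 bases before each annotated start were searched on both strands for the E-box CACGTG, the variant CACGTT, the D-box TTATGTAA or TTACGTAA, and the cAMP response element TGACGTCA with its short form TGACG, which the full form contains. The windows below run 5′ to 3′ on the gene's strand with E-box and D-box letters in capitals; the short form is left in lower case.
Per1, plus strand, chr11:69098699-69098948: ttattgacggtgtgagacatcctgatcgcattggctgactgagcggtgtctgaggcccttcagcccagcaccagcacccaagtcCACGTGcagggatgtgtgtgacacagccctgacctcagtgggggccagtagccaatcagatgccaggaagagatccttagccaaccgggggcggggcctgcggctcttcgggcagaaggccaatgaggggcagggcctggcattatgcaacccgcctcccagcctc
Per3, minus strand, chr4:151044666-151044915: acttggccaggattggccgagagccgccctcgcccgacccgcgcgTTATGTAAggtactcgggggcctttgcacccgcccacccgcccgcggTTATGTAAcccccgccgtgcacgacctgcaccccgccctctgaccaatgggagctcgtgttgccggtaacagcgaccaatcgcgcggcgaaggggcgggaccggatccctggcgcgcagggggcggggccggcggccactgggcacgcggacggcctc
Cry2, minus strand, chr2:92434070-92434319: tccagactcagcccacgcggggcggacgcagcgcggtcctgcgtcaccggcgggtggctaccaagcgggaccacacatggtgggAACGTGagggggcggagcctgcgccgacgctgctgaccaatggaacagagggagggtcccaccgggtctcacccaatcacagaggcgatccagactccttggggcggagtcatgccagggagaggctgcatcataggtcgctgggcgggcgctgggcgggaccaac
The Per1 window held 1 CACGTG from -166 to -161 relative to the annotated start, and the short form from -246. The other Per1 window held none of the elements but the short form. CACGTG occurred in 6.02% of all 32851 windows of this length. The Per3 window held TTATGTAA 2 times, from -205 and from -158, whereas 0.931% of windows held a D-box at all and 0.0213% held 2 or more. The Cry2 window held the variant, read as AACGTG, from -166 to -161, an element in 3.85% of windows, and the short form from -209. The Cry1 window held CACGTG from -60, AACGTG from -79 and the short form from -8. The 4 Csnk1e windows held none of the elements except the short form, in 2 of them, and the short form was in 17.8% of all windows. The full TGACGTCA was in 1.55% of all windows and in 0 of these 9. Such matches describe letters and do not show that a factor binds there.

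Markers of vessel wall cells were read first. The 5 smooth muscle markers (Acta2, Myh11, Tagln, Cnn1 and Smtn) and the 5 endothelial markers were well above background on all 6 arrays. So were all 5 cardiac, 5 skeletal muscle and 10 adipocyte markers, so this detection does not by itself identify the tissue. The arrays had between 66.4% and 74.4% of spots well above background, a 75th percentile from 239 to 407 in signal units and no saturated spot, and knockout replicate 3 was lowest in both. All arrays shared 1 slide and 1 scan. Wild-type arrays occupied row 1 of it and knockout arrays row 2, so a row effect and a group effect cannot be told apart.

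Signals below are log2 values of each array minus that array's 75th percentile, given in the order of replicates 1, 2 and 3, and each difference is the knockout mean minus the wild-type mean. Signals of different probes are not comparable in level, because probes differ in how brightly they bind.

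Per1 encodes a PER repressor whose mRNA is also induced by acute signals such as glucocorticoids and light in other tissues. Its NM_011065 probe (mm9, chr11:68923364-68923423, plus strand) read 4.50, 4.32 and 4.05 in wild-type marrow arches and 3.38, 3.16 and 3.12 in knockout marrow arches. The highest knockout array stood below the lowest wild-type array. The means were 4.29 ± 0.23 and 3.22 ± 0.14 (SD, n = 3 each), a difference of -1.07 ± 0.18 (SE; 95% interval -1.49 to -0.65), or 2.10-fold lower. The adjusted p by limma was 0.356, and by unadjusted p (0.000432) this probe ranked 38 among the 38341 tested. In bulk tissue, fewer cells that make a transcript and less RNA of it per cell cannot be told apart.

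Per2, whose loss shortens or abolishes the rhythm of behaviour in mice, read -0.14, -0.08 and 0.02 in wild-type marrow arches (mm9, chr1:93313046-93313105, minus strand). In knockout marrow arches it read -2.16, -0.72 and -1.12. The groups did not overlap, and the knockout arrays were spread far wider than the wild-type ones, with replicate 1 lowest. The means were -0.07 ± 0.08 and -1.33 ± 0.74, a difference of -1.27 ± 0.34 (95% interval -2.07 to -0.46), or 2.40-fold lower, with an adjusted p of 0.448 by limma. Without knockout replicates 2 and 3 the difference was -2.09, and without knockout replicate 1 it was -0.85.

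Per3 is a PER homologue that mouse rhythms can largely do without. It read -1.56, -0.35 and -0.93 in wild-type marrow arches and -2.83, -2.94 and -1.97 in knockout marrow arches (mm9, chr4:150379256-150379315, minus strand). Again the groups did not overlap, although the lowest wild-type array and the highest knockout array were close to each other. The difference was -1.63 ± 0.37 (95% interval -2.49 to -0.78) between means of -0.95 ± 0.60 and -2.58 ± 0.53, or 3.10-fold lower, with an adjusted p of 0.393 by limma. With normexp background correction it was -1.00. Differences between Per1, Per2 and Per3 in the size of their change were not tested.

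Cry2 encodes a cryptochrome that represses CLOCK and BMAL1. Its NM_009963 probe (mm9, chr2:92243807-92243866, minus strand) read 3.25, 3.50 and 3.48 in wild-type marrow arches and 2.45, 2.66 and 3.24 in knockout marrow arches. The groups were barely apart, with knockout replicate 3 just under wild-type replicate 1, and they overlapped with median centring. The difference was -0.63 ± 0.23 (95% interval -1.17 to -0.09), 1.55-fold lower, between means of 3.41 ± 0.14 and 2.78 ± 0.41, with an adjusted p of 0.536 by limma. Its unadjusted p was 0.0273 and went above 0.05 in 4 of the 17 alternatives, those that left out wild-type replicate 2, wild-type replicate 3, knockout replicate 1 or knockout replicate 2 (0.0739 to 0.0787). Without knockout replicates 2 and 3 the difference was -0.96.

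Cry1, the other cryptochrome, gave too weak a signal for a test. Its probe (NM_007771, mm9, chr10:84594731-84594790, minus strand) was well above background on wild-type arrays 1 and 3 and on knockout array 2, that is on 2 and 1 arrays. It read -4.14, -4.79 and -3.70 in wild-type marrow arches and -4.94, -2.61 and -4.49 in knockout marrow arches. The groups overlapped, and no fold is given. A Cry1 difference was therefore not detectable on these arrays.

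The kinases showed smaller differences. Csnk1d encodes casein kinase 1 delta, which phosphorylates PER proteins. Its NM_027874 probe (mm9, chr11:120823088-120823147, minus strand) read 4.60, 4.53 and 4.49 against 4.28, 4.68 and 4.76, so that the knockout arrays lay on both sides of the wild-type ones. The difference was 0.03 ± 0.18 (95% interval -0.38 to 0.45). That does not show that the groups were equal, since differences within those bounds remain possible. Its NM_139059 probe (mm9, chr11:120830435-120830494, minus strand) read -1.30, -1.05 and -1.12 against -0.58, -0.83 and -0.80. All knockout arrays were above all wild-type arrays. The difference was 0.42 ± 0.16 (95% interval 0.04 to 0.79), 1.34-fold higher, with an adjusted p of 0.544 by limma. Its unadjusted p of 0.0331 went above 0.05 in 5 of the 17 alternatives, namely with the replicate block and without wild-type replicate 1 or 3 or knockout replicate 1 or 3.

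Csnk1e encodes casein kinase 1 epsilon, the kinase mutated in the tau hamster, and both of its probes carry NM_013767. The probe at chr15:79248330-79248389 of mm9 (minus strand) read 1.60, 1.75 and 1.45 against 1.12, 1.40 and 1.74. The probe at chr15:79255355-79255414 read 1.05, 1.12 and 1.06 against 0.78, 1.18 and 0.89. In both the groups overlapped, and the differences were -0.18 ± 0.20 (95% interval -0.65 to 0.29) and -0.13 ± 0.17 (95% interval -0.52 to 0.26). Neither differed beyond the spread between arrays.

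Btrc encodes beta-TrCP, which targets phosphorylated PER proteins for breakdown, and both probes carry NM_001037758. The probe at chr19:45607701-45607760 of mm9 (plus strand) read -0.12, 0.56 and 0.13 against 0.05, 0.33 and 0.68. The probe at chr19:45604418-45604477 read -2.69, -3.58 and -3.45 against -3.67, -3.61 and -3.31. The groups overlapped in both, with differences of 0.16 ± 0.24 (95% interval -0.40 to 0.73) and -0.29 ± 0.26 (95% interval -0.89 to 0.32).

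**Figure D1:**
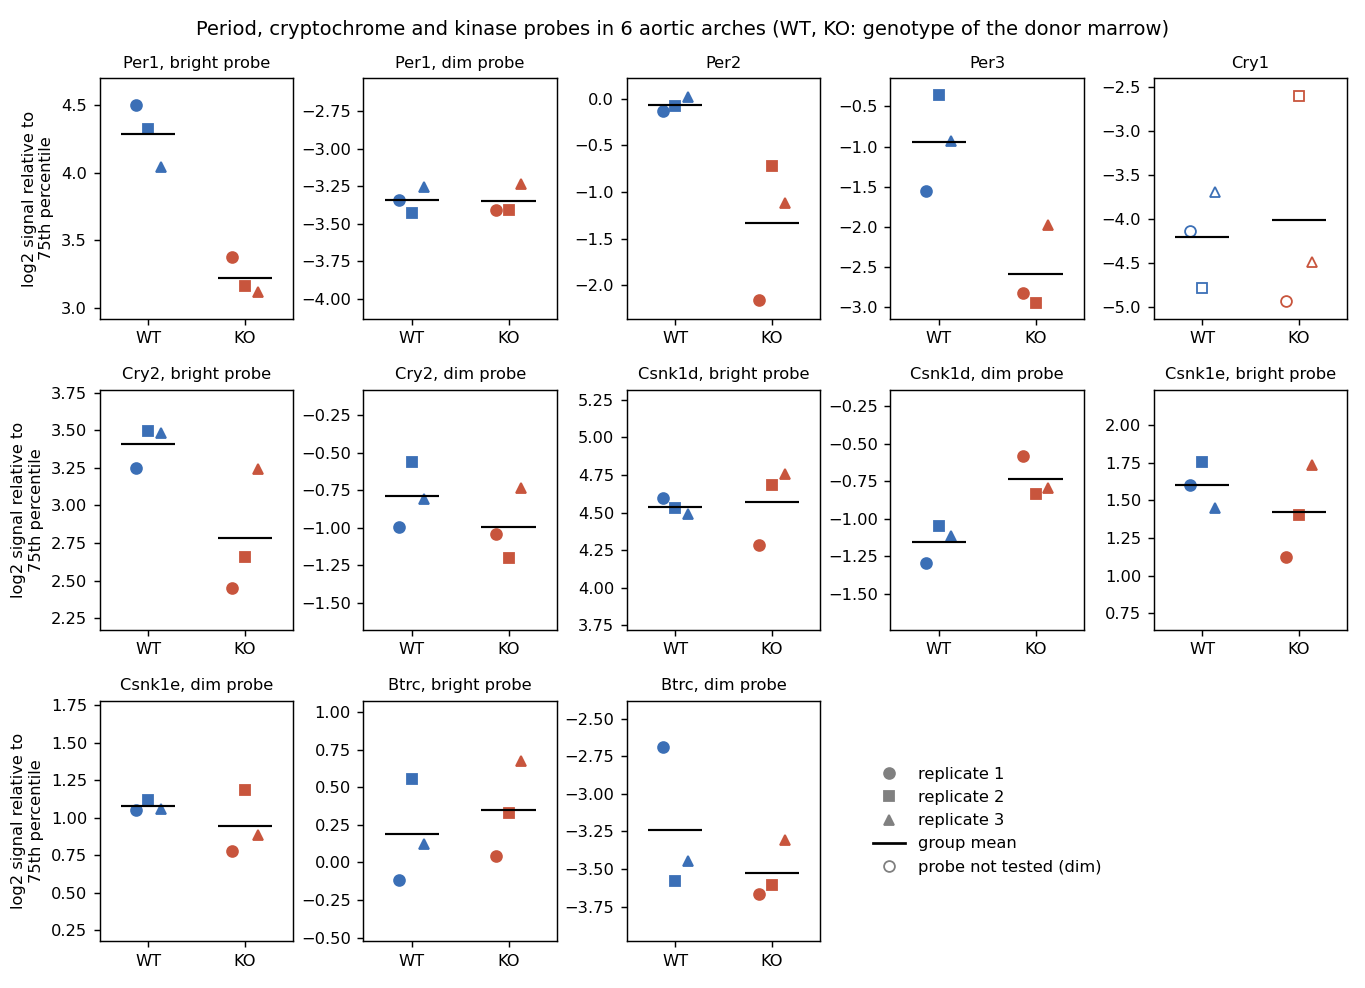
Each panel shows 1 of the 13 member probes, with log2 signal relative to the array's 75th percentile on the vertical axis. Wild-type (WT) or knockout (KO) donor marrow is on the horizontal axis. Points are arrays marked by replicate, and lines are group means. Open points mark the Cry1 probe, which was too dim to be tested, on all its arrays. Per1 (NM_011065), Per2, Per3 and Cry2 (NM_009963) have all KO points below all WT points, and the Csnk1d NM_139059 probe has them above.

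**Figure D2:**
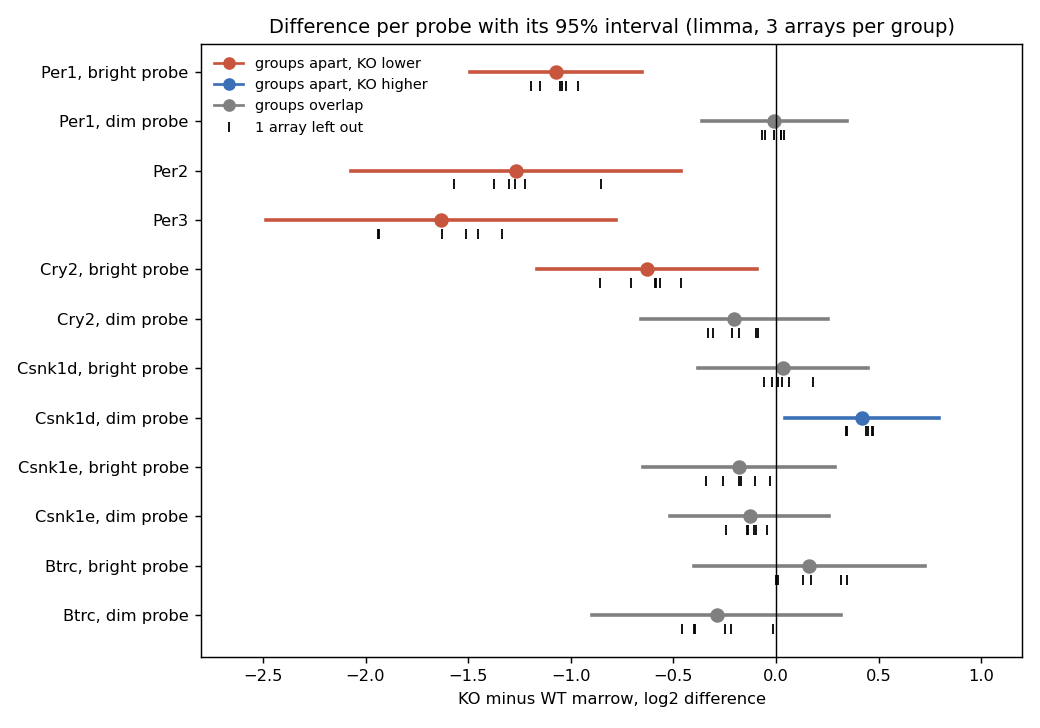
Differences in log2 signal, KO minus WT marrow, are plotted for the 12 tested probes with 95% intervals from limma over 3 arrays per group. Intervals run from -2.49 to -0.78 for Per3, from -2.07 to -0.46 for Per2 and from -1.49 to -0.65 for Per1, and 7 of the 12 probes have intervals that cross 0.

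The 12 tested probes were set against all 38341. By the adjusted test 0 of 12 passed, where 0.00261% of all tested probes (1 probe) did. At an unadjusted p under 0.05, 4 of 12 were lower (Per1, Per2, Per3 and Cry2), against 4.27% of all tested probes. 1 of 12 was higher (Csnk1d), against 4.44%. The groups did not overlap in 4 of 12 with the knockout arrays lower, against 6.14%, and in 1 of 12 with the knockout arrays higher, against 7.58%. The median difference of the 12 was -0.19, and that of all tested probes was 0.02. Since 5 genes have 2 probes each, the 12 are not independent of one another.

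**Figure D3:**
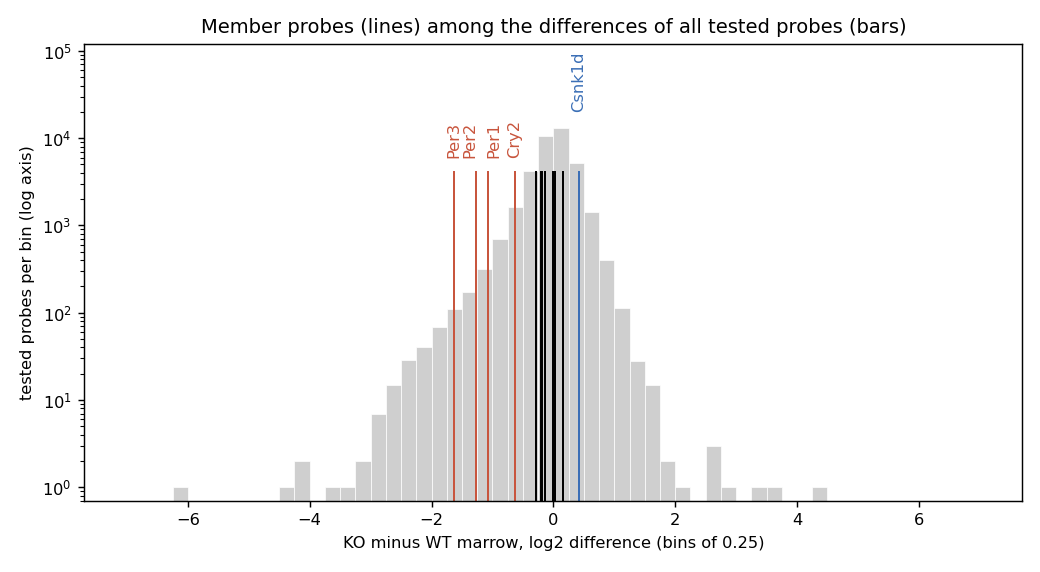
Grey bars count the 38341 tested probes by difference, KO minus WT marrow on the log2 scale, in bins of 0.25 with a log vertical axis; lines mark the 12 member probes and the 5 whose groups do not overlap are named. The named lines lie at -1.63 (Per3), -1.27 (Per2), -1.07 (Per1), -0.63 (Cry2) and 0.42 (Csnk1d), and the other 7 lie between -0.29 and 0.16.

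Where a gene has 2 probes, these could be read against each other. In Per1 the probe named AK081813 (mm9, chr11:68919895-68919954, plus strand) read -3.35, -3.43 and -3.25 against -3.41, -3.41 and -3.23, a difference of -0.01 ± 0.15 (95% interval -0.36 to 0.34). Its groups overlapped, unlike those of NM_011065. The AK081813 probe was dim, with a mean level above 18.5% of tested probes, against 92.0% for NM_011065. Whether its low level shaped its difference was not tested. In Per1, Cry2 and Csnk1d the groups were apart in 1 probe and overlapped in the other. The last 30 bases of the 60-base probes are shown for Per1 and Cry2 only.
Per1 NM_011065: atttgtgtttttgatattgtgtctgttatt
Per1 AK081813: ctccttgttaaccctggtctttccccacAG
Cry2 NM_009963: tgttttataaatgtctgatcctgtctgagt
Cry2 NM_001113333: gccaccatgtctactttaccttctaaaatt
Capitals mark a final AG, the bases that end most introns, but a match of 2 bases does not show where a probe lies. Whether the AK081813 probe lies in an exon, an intron or an untranslated region was not analysed here. The Per1 NM_011065 signal minus the AK081813 signal was 7.85, 7.76 and 7.30 in wild-type marrow arches and 6.79, 6.57 and 6.35 in knockout marrow arches, so that the gap was narrower in every knockout array, with a mean difference of -1.06. An exact permutation test gave a two-sided p of 0.1, which is the smallest that 3 against 3 arrays can give (adjusted over the 5 genes, 0.167).

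Cry2's second probe (NM_001113333, mm9, chr2:92251417-92251476, minus strand) read -1.00, -0.56 and -0.81 against -1.04, -1.20 and -0.74. Its difference of -0.20 ± 0.19 (95% interval -0.66 to 0.25) was smaller than that of NM_009963, and its groups overlapped. The gap between the Cry2 probes was 4.25, 4.05 and 4.29 against 3.49, 3.86 and 3.98, and the Csnk1d gap was 5.90, 5.58 and 5.61 against 4.86, 5.52 and 5.55. Both gaps were narrower without overlap, with mean differences of -0.42 and -0.38, each with an exact permutation p of 0.1 (adjusted 0.167). The Csnk1d gap of knockout replicate 1 was far narrower than those of replicates 2 and 3. In Csnk1e and Btrc the gaps overlapped between the groups.

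The Period genes were then followed array by array, each minus its own mean over the 6 arrays. Per1 stood at 0.75, 0.57 and 0.29 in wild-type marrow arches and at -0.38, -0.59 and -0.64 in knockout marrow arches. Per2 stood at 0.56, 0.62 and 0.72 against -1.46, -0.02 and -0.42, and Per3 at 0.21, 1.41 and 0.83 against -1.06, -1.18 and -0.21. Within the groups the 3 genes did not share an order: knockout replicate 1 was lowest for Per2, replicate 2 for Per3 and replicate 3 for Per1.

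Arches can carry fat, so adipocyte markers were read on the same arrays. All 10 white and brown adipocyte markers were well above background on all 6 arrays, and 9 of 10 had differences below 0. At an unadjusted p under 0.05 by limma, 2 were lower and 0 higher, against 4.27% and 4.44% of all tested probes. Their summed signal relative to the 75th percentile ran from 590 to 1208 in wild-type and from 77.4 to 1129 in knockout marrow arches. Their mean deviation was 1.01, 0.32 and 1.27 against 1.28, -1.23 and -2.66, so that knockout replicate 1 stood level with the highest wild-type array and replicates 2 and 3 stood below every wild-type array. With replicates 2 and 3 left out, the Per differences were -0.92 (Per1), -2.09 (Per2) and -1.88 (Per3). The knockout group was then replicate 1 alone, assumed to vary as the wild-type arrays do. These values rest on 1 knockout array, which was also the lowest knockout array for Per2. The 5 cardiac markers summed to between 4.92 and 11.1 against 6.50 and 32.6, and the 5 thymocyte markers, of which 2 were well above background on all 6 arrays, to between 1.52 and 1.66 against 0.67 and 1.86. Smooth muscle markers summed to between 1789 and 2213 against 1943 and 2995, with 5 of 5 differences above 0. The macrophage markers, 4 of 5 of which had a tested probe (Adgre1 had none), summed to between 100.1 and 133 against 138 and 174. Such a sum weighs the brightest probe most, here Itgam. Each of the 4 overlapped between the groups. Their mean deviation was 0.13, -0.22 and -0.31 against -0.08, 0.59 and -0.10, which also overlapped. The 5 skeletal muscle markers summed to between 37.02 and 62.8 against 37.07 and 55.3. By the same unadjusted rule and beside the same shares, 1 smooth muscle marker (Myh11) and 1 cardiac marker (Tnnt2) were higher. In the thymocyte list 1 marker (Rag2) was lower, and in the endothelial, macrophage and skeletal muscle lists 0 were lower or higher. The part of all these cells in the Per and Cry2 differences was not tested.

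**Figure D4:**
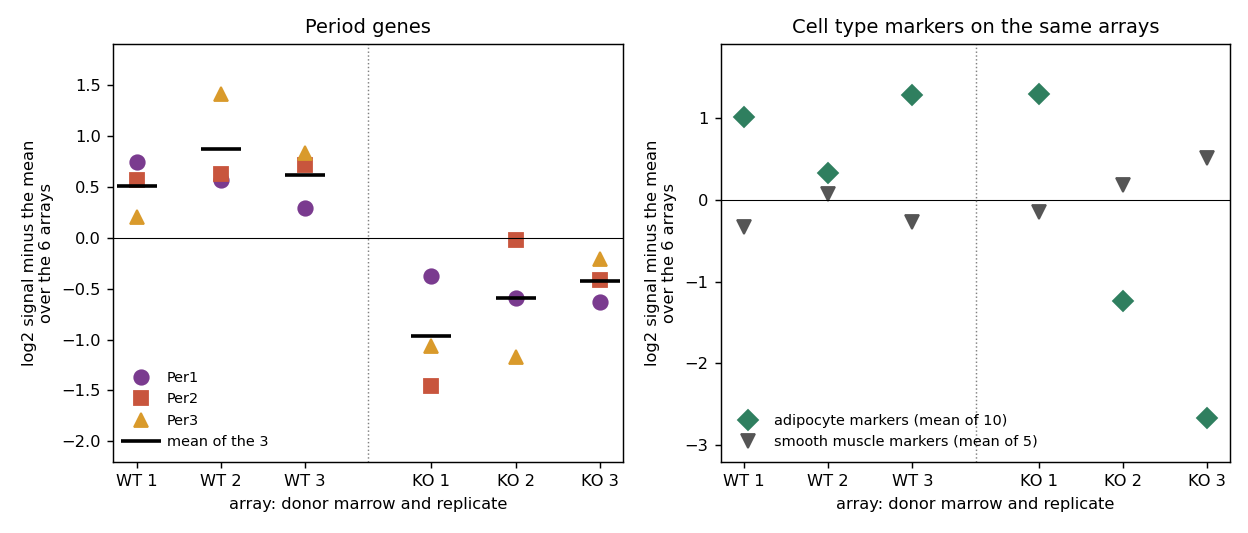
The left panel shows log2 signals of Per1, Per2 and Per3, each minus its mean over the 6 arrays, with their mean as a bar; the right panel shows mean deviations of the 10 adipocyte and 5 smooth muscle markers, for the same arrays. The mean Period bar is positive in all 3 WT arrays and negative in all 3 KO arrays, between -0.97 and -0.42. Adipocyte markers stand at 1.28 in KO replicate 1 and at -2.66 in KO replicate 3. A relation between the panels was not tested.

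Other genes of the pathway were read from lists, with the brightest tested probe for each gene. Of 22 genes that modify PER and CRY or set their turnover, 0 passed the adjusted test, 2 were lower and 0 higher at an unadjusted p under 0.05 (4.27% and 4.44% of all tested probes), and the median was -0.03, beside 0.02 over all tested probes. The 2 were Usp2, a deubiquitinase whose own mRNA cycles, at -1.40 ± 0.26, and Ppp5c, a phosphatase that acts on casein kinase 1 epsilon, at -0.45 ± 0.17. Csnk2a1, a casein kinase 2 subunit, followed at -0.27 ± 0.15. Fbxw11, a paralogue of Btrc that also targets PER proteins, gave 0.13 ± 0.20, with overlapping groups.

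Of 16 partners found in PER and CRY complexes, 1 passed the adjusted test, 2 were lower and 0 higher at an unadjusted p under 0.05, against the same 4.27% and 4.44%, and the median was -0.11. That 1 was Ciart, a repressor that binds BMAL1, which was at least 16.9-fold lower (adjusted p = 0.000242 by limma) and the 1 probe to pass among all 38341. It was well above background on all wild-type and 0 knockout arrays, so it entered the test through the wild-type group alone and its p rests on knockout signals below the background limit. Among the 35208 probes well above background on all 6 arrays, which leaves Ciart out, 0 passed in limma. Of these, 1296 (3.68%) were lower and 1711 (4.86%) higher at an unadjusted p under 0.05. Hdac3, a histone deacetylase, was at -0.53 ± 0.19, and Timeless at -0.84 ± 0.42 with overlapping groups. Of the 14 clock transcription factors, 0 passed, 6 were lower and 3 higher at an unadjusted p under 0.05, again beside 4.27% and 4.44% of all tested probes, with a median of -0.83. The smallest p-values there belonged to Npas2, a CLOCK homologue, at 2.56 ± 0.28, and to Tef and Dbp, PAR-bZIP factors that bind D-boxes, at -1.93 ± 0.22 and -4.19 ± 0.56.

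The mean of the 3 centred Period genes ran 0.51, 0.87 and 0.61 in wild-type and -0.97, -0.60 and -0.42 in knockout marrow arches. Among 15500 other named genes the 5 nearest to that profile, by root mean square distance over the 6 arrays, were Shisa2 (0.124), Prickle4 (0.132), Acan (0.168), Stox1 (0.235) and Hlf (0.240). Since these genes were picked by that profile, lower signals in knockout marrow arches follow from the choice. The differences of the 5 genes were -1.14 ± 0.17, -1.18 ± 0.21, -1.09 ± 0.19, -1.40 ± 0.19 and -1.24 ± 0.27. All 5 were closer to the mean than Per1 (0.327), Per2 (0.328) or Per3 (0.370) were themselves, which a search for the nearest of many genes favours. Hlf is a PAR-bZIP clock output factor and Acan encodes the cartilage proteoglycan aggrecan. The distance over 6 arrays is a description, since the genes were chosen by it, and it carries no test.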

How the data were processed

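Arch RNA was hybridised to one-colour arrays. Per the file headers, the deposited values are linear intensity signals, read with Agilent Feature Extraction 10.7.3.1, with background subtracted and no normalization between arrays. Here log2 signals minus each array's 75th percentile were taken, outlier spots were left out (13 probes set aside) and the spots of a probe were averaged. Probes that all 3 arrays of either group flagged well above background, 38341 in number, were tested two-sided with limma 3.58.1 (R 4.3.3), and p-values were adjusted over all of them by Benjamini and Hochberg's method. Every member probe is named. From each pathway list the 3 smallest p-values are named, and from the likeness search the 5 nearest genes; Fbxw11 was added as Btrc's paralogue after its values were seen. The members and lists were chosen with earlier results of these data known. Replicate numbers did not pair the samples. Coordinates of probes are mm9 as the files give them, and those of promoters and the miRNA are from RefSeq on GRCm38.p6. Sequences were read from the files and from RefSeq tables. The fit was tested on simulated data. That mice were separate animals is stated by the series design.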

Additional observations from a re-analysis of the deposited data

How the results depend on the processing

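Over 17 alternatives (background correction, normalization, filters, the authors' table, variance model, array weights, each array left out, a replicate block and knockout replicates 2 and 3 left out), the 12 tested probes gave 204 values. Of these 193 kept their direction and 11 did not, and 0 passed the adjusted test. Differences ran from -1.19 to -0.92 for Per1 (NM_011065), from -2.09 to -0.85 for Per2, from -1.94 to -1.00 for Per3, from -0.96 to -0.46 for Cry2 (NM_009963) and from 0.34 to 0.57 for Csnk1d (NM_139059). The 11 reversals were in 4 of the 12 probes, and the cause was not tested. Per1 AK081813 gave 0.20 with normexp, 0.0026 with quantile normalization, and -0.067 to 0.037 with 1 array left out (above 0 without wild-type array 3 or knockout array 1 or 2). Csnk1d NM_027874 gave -0.0087 with normexp, -0.059 to 0.179 with 1 array left out (below 0 without knockout array 2 or 3), and -0.26 without both of those. Btrc gave -0.14 (the probe at 0.16) without both and 0.061 (the probe at -0.29) with normexp. The count of members higher at an unadjusted p under 0.05 was 0 with the replicate block, against 3.35% of all tested probes. The block's same-number correlations were 0.12, 0.05 and -0.28. With 1 array left out that count was 0 to 1, against 1.79% to 7.15% of all tested probes. Members lower at an unadjusted p under 0.05 then numbered 3 to 4, against 2.13% to 10.7%. Members without overlap numbered 4 to 7 lower and 1 to 2 higher with 1 array left out, where 8.18% to 18.3% of all probes were apart and lower and 9.22% to 18.7% apart and higher. They numbered 9 lower without knockout replicates 2 and 3, against 28.1% of all probes, since fewer arrays separate more easily. With median centring they numbered 3 lower (5.91% of all probes), since the Cry2 groups overlapped. Over all probes, 1636 lower and 1703 higher calls became 816 and 688 when wild-type array 3 was left out, 4105 and 2743 when knockout array 1 was, and 4049 and 3114 with array weights. Higher calls were 1056 without wild-type replicate 1. Adjusted calls were 1, against 4 with normexp, 0 when all 6 arrays had to be above background, and 2 with median centring, a trended robust variance, array weights, or without knockout replicate 3 or replicates 2 and 3. With normexp, 62.7% of unadjusted calls were higher against 51.0%. The number of arrays and dim signals, Cry1's above all, limit precision.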
